A study of Mus musculus with 8 samples.

Results

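The kinesin motor family was taken as every gene symbol written as Kif, a number and at most 1 of the letters a, b and c, which gave 37 of the 23343 symbols in the deposited tables. By known role, 12 of them were grouped as mitotic kinesins, 15 as transport kinesins, 6 as kinesins of the cilium and flagellum, and 4 as others. The family was chosen by its counts in the cKit libraries, as a family lower in cKit dKO than in cKit control, and every comparison that uses those libraries is given as a description. The numbers of members past edgeR's threshold (adjusted p under 0.05) in them are counts for description, given beside the share of all genes, and no p-value is given for them. Of the 37 members, 35 passed the filter on low counts. The other members were Kif2b, with 1 and 3 counts in the Thy1 dKO libraries and 0 in every other, and Kif12, with 6 counts in cKit control replicate 1 and 0 in every other.

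Kinesins are motor proteins that use ATP to step along microtubules or to take them apart at their ends. Mitotic kinesins build the spindle, align chromosomes and cut the daughter cells apart, and their transcripts accumulate in G2 and M phase of dividing cells. Transport kinesins carry vesicles, organelles and RNA toward microtubule plus ends in dividing and resting cells alike. In the testis, spermatogonia divide by mitosis with incomplete cytokinesis, so that sister cells stay joined by intercellular bridges, and later germ cells need kinesins for the meiotic spindle, the manchette and the flagellum.

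RNA was sequenced from spermatogonia of C57BL/6 testes at postnatal day 7. There were 4 groups of 2 libraries: cKit+ cells labelled PRC1dKO (cKit dKO), cKit+ cells labelled PRC1ctrl (cKit control), Thy1+ cells labelled PRC1dKO (Thy1 dKO) and Thy1+ cells labelled PRC1ctrl (Thy1 control). PRC1 is Polycomb repressive complex 1, which ubiquitinates histone H2A and keeps developmental genes silent. Thy1 is a surface protein used to enrich the less differentiated cells, and the receptor Kit appears as differentiation begins. The labels do not state which genes were deleted, by which Cre, what the control mice carried, or whether the 2 libraries of a group came from different animals, so that p-values measure only the spread between these libraries, which may be technical.

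Library totals ran from 6763908 to 10976869 counts. Rnf2, which encodes a PRC1 ligase subunit, had 134 and 141 CPM (counts scaled to a common library size) in cKit dKO and 146 and 125 CPM in cKit control, and 128 and 126 CPM in Thy1 dKO and 103 and 120.4 CPM in Thy1 control. Counts over a whole gene do not check a deletion of some exons, so these values do not check the labels. Kit had 1059 and 1012 CPM in cKit dKO and 1049 and 938 CPM in cKit control, against 311 and 281 CPM in Thy1 dKO and 301 and 317 CPM in Thy1 control. Kit does not stand for the other genes of its list. Of 7 differentiating spermatogonia genes, Kit among them, 5 were past edgeR's threshold as lower in cKit dKO than in cKit control and 0 as higher. The shares of all genes were 15.4% lower and 13.2% higher, and the median log2 fold change of the list was -1.63 at this scaling. Thy1 itself had at most 1.28 CPM in any cKit library and 12.8 to 26.0 CPM in the Thy1 libraries. The summed level of 25 germ cell genes was 738 and 1036 CPM in cKit dKO and 3031 and 2392 CPM in cKit control, and 3144 and 2802 CPM in Thy1 dKO and 3418 and 3688 CPM in Thy1 control. Sertoli, stromal, endothelial and Leydig markers had a higher summed level in cKit dKO than in cKit control. For 11 Sertoli genes it was 754 and 748 CPM against 408 and 445 CPM. For 11 stromal genes it was 6271 and 5030 CPM against 3236 and 3154 CPM. For 9 endothelial genes it was 441 and 457 CPM against 220.0 and 223 CPM. For 6 Leydig genes it was 14978 and 17548 CPM against 10728 and 12944 CPM. Of the Leydig genes 4 were past edgeR's threshold as higher and 1 as lower. Macrophage genes, 10 in number, summed to 146 and 533 CPM in cKit dKO and 180.05 and 413 CPM in cKit control, and none of them or of 6 neuronal genes was past edgeR's threshold between those groups. In the Thy1 libraries the Leydig genes summed to 3620 and 4065 CPM in Thy1 dKO and 2468 and 3085 CPM in Thy1 control. No gene of these marker lists was at 0 in all 8 libraries, and their part in the kinesin values was not tested. In bulk RNA, fewer cells of a type and less RNA per cell cannot be told apart.

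Many directions in cKit dKO depend on what the libraries are scaled to. The main values use TMM, which centres most genes. Scaling the libraries on the 25 germ cell genes moved the median log2 fold change of all tested genes by 1.61 in cKit dKO over cKit control, by 0.27 in Thy1 dKO over Thy1 control and by 0.42 in cKit control over Thy1 control.

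Under TMM scaling the mitotic kinesins were lower in cKit dKO than in cKit control. Their median log2 fold change was -1.05 over the 11 that passed the filter. With scaling on germ cell genes their median was 0.57. On that scale 4 of the 11 were past edgeR's threshold as higher, beside 82.1% of all genes in either direction, and Kif18a, Kif20a and Kif2c had negative estimates. The transport kinesins had a median of -0.16 under TMM scaling and 1.47 with scaling on germ cell genes. The median of all 14907 tested genes was 0.03 under TMM and 1.65 on the germ cell scale. The mitotic median minus that of all genes was -1.08 under either scaling. The median of the transport kinesins minus that of all genes was -0.19 under TMM and -0.18 on the germ cell scale. A change of scaling moves all genes by about the same amount, so this agreement between scalings was fixed in advance and is no support.

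**Figure D1:**
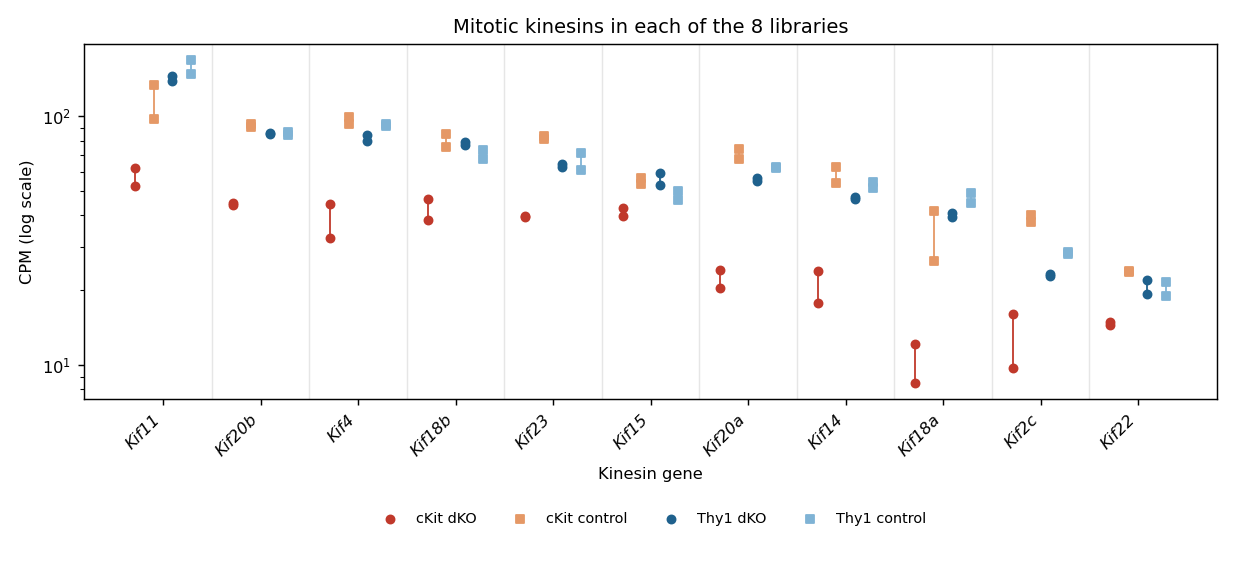
Level of each of the 11 mitotic kinesins that passed the low-count filter (horizontal axis, from the highest mean level to the lowest) in CPM on a log scale (vertical axis), scaled by TMM; each point is 1 library, and a line joins the 2 libraries of a group. Under this scaling both cKit dKO libraries (red circles) sit below both cKit control libraries (orange squares) for every gene, whereas with scaling on germ cell genes the median of the class was 0.57 higher on the log2 scale in cKit dKO.

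Of the motors that set up the spindle, Kif11 (mm10 chr19:37376403-37421859) slides antiparallel microtubules apart to separate the poles. It had 52.5 and 62.0 CPM in cKit dKO against 133 and 98.0 CPM in cKit control, and 145 and 139 CPM in Thy1 dKO against 148 and 168 CPM in Thy1 control. The cKit dKO libraries were the lowest of the 8, and the log2 fold change over cKit control was -1.02 ± 0.15 (SE), or 2.03-fold lower, under TMM scaling and 0.61 with scaling on germ cell genes. Kif15 (chr9:122951081-123018733), which can keep the spindle bipolar when Kif11 is weak, had the smallest change of the class under TMM scaling and the largest positive one with scaling on germ cell genes. It had 39.9 and 43.0 CPM in cKit dKO against 56.4 and 53.7 CPM in cKit control, and 59.1 and 53.2 CPM in Thy1 dKO against 46.3 and 50.1 CPM in Thy1 control. Its log2 fold change in cKit was -0.41 ± 0.15 under TMM scaling, with groups that did not overlap, and 1.20 with scaling on germ cell genes.

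Among the motors that bind chromosome arms, Kif4 (chrX:100626065-100727271) organises chromosomes and the central spindle. It had 32.3 and 44.5 CPM in cKit dKO against 99.4 and 93.4 CPM in cKit control, and 84.0 and 79.5 CPM in Thy1 dKO against 91.1 and 93.6 CPM in Thy1 control. In cKit dKO it was 2.51-fold lower (log2 fold change -1.33 ± 0.15) under TMM scaling, and its change was 0.26 with scaling on germ cell genes. Kif22 (chr7:127027731-127042420), the other arm-binding motor, pushes chromosomes away from the poles. It had 14.6 and 14.9 CPM in cKit dKO against 23.7 and 23.9 CPM in cKit control, and 22.0 and 19.3 CPM in Thy1 dKO against 21.6 and 18.9 CPM in Thy1 control. The change in cKit was -0.69 ± 0.21 under TMM scaling and 0.92 with scaling on germ cell genes, while in Thy1 the groups overlapped.

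The next motors shorten or cap microtubule ends. Kif18a (chr2:109280738-109341746) damps chromosome movement at the metaphase plate, and mutation of the gene in mice depletes the germ line. It had 12.2 and 8.47 CPM in cKit dKO against 41.8 and 26.3 CPM in cKit control, and 40.9 and 39.5 CPM in Thy1 dKO against 44.7 and 49.1 CPM in Thy1 control. Both cKit control libraries stayed above both cKit dKO libraries, a log2 fold change of -1.73 ± 0.24 or 3.32-fold lower under TMM scaling, and of -0.04 with scaling on germ cell genes. Kif18b (chr11:102905519-102925124), which trims astral microtubules, had 38.3 and 46.7 CPM in cKit dKO against 84.7 and 75.4 CPM in cKit control, and 78.9 and 76.9 CPM in Thy1 dKO against 73.1 and 67.7 CPM in Thy1 control. Kif2c (chr4:117159636-117182624), a depolymerase that corrects faulty kinetochore attachments, had 9.77 and 15.998 CPM in cKit dKO against 40.0 and 37.6 CPM in cKit control, and 23.3 and 22.9 CPM in Thy1 dKO against 28.4 and 28.1 CPM in Thy1 control. In cKit the log2 fold change was -0.91 ± 0.14 for Kif18b and -1.59 ± 0.22, or 3.01-fold lower, for Kif2c under TMM scaling, and 0.69 for Kif18b and -0.02 for Kif2c with scaling on germ cell genes.

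The remaining mitotic members act at the spindle midzone and in cytokinesis. Kif23 (chr9:61917278-61946799) forms centralspindlin with Racgap1 and is also a component of germ cell intercellular bridges. It had 39.7 and 39.5 CPM in cKit dKO against 83.1 and 80.9 CPM in cKit control, and 62.5 and 64.1 CPM in Thy1 dKO against 60.8 and 71.3 CPM in Thy1 control. The log2 fold change in cKit was -1.05 ± 0.14 under TMM scaling and 0.57 with scaling on germ cell genes, and the Thy1 groups overlapped. Kif20a, which brings Aurora B kinase to the midzone, had 20.5 and 24.2 CPM in cKit dKO against 74.2 and 67.2 CPM in cKit control, and 56.6 and 54.998 CPM in Thy1 dKO against 62.7 and 62.2 CPM in Thy1 control. Its change in cKit was -1.66 ± 0.15, or 3.17-fold lower, under TMM scaling and -0.06 with scaling on germ cell genes. The tables split Kif20a over 3 entries. In Thy1 dKO 1 entry held 503 counts in replicate 1 and 0 in replicate 2, while another held 0 and 404. Its CPM values and log2 fold changes given here are of the sum over its entries. Its RPKM is of the single entry with most counts and is not read. Kif20a also overlaps Cdc23 over 1595 bases and Brd8 over 187 bases on the opposite strand. The use of strand in counting is not given in the sources used here, so reads of these genes cannot be told apart.

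Kif20b (chr19:34922358-34975731), a motor of the midbody, had 43.9 and 45.01 CPM in cKit dKO against 93.1 and 90.9 CPM in cKit control, and 85.8 and 85.1 CPM in Thy1 dKO against 84.0 and 86.5 CPM in Thy1 control. Its log2 fold change was -1.05 ± 0.13 in cKit, or 0.57 with scaling on germ cell genes, and 0.00 ± 0.12 in Thy1. Kif14 (chr1:136467958-136531511), which recruits citron kinase to the midbody, had 17.8 and 24.0 CPM in cKit dKO against 62.9 and 54.2 CPM in cKit control, and 46.4 and 47.4 CPM in Thy1 dKO against 54.4 and 51.4 CPM in Thy1 control. In cKit it was 2.81-fold lower (-1.49 ± 0.17) under TMM scaling, and its change was 0.11 with scaling on germ cell genes.

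Promoter sequence was also read for the family, as a description. Whether it bears on the changes in the cKit libraries was not tested. Cell cycle genes whose transcripts peak in G2 and M phase often carry a CHR element, TTTGAA, near their start site and CCAAT boxes upstream, bound by the MuvB-based complexes and by NF-Y. RefSeq windows of build GRCm38.p6, from 250 bases before to 50 after the start site, were found for 31 of the 37 members. The stretches below run 5′ to 3′ on the strand of the gene and cover 55 bases before and 25 after the RefSeq start; capitals mark TTTGAA and CCAAT or their reverse complements TTCAAA and ATTGG. They show 7 mitotic members with a CHR match close to the start, and then Kif3a, a transport member with a CCAAT match, and Kif1c, a transport member with neither.
Kif11 (chr19:37376327-37376406, plus strand): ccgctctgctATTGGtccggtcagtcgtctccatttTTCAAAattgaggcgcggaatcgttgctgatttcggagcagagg
Kif22 (chr7:127042396-127042475, minus strand): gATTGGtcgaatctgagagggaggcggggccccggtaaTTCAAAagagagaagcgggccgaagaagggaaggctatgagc
Kif15 (chr9:122951026-122951105, plus strand): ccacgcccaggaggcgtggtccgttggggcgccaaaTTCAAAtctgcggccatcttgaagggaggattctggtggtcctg
Kif23 (chr9:61946775-61946854, minus strand): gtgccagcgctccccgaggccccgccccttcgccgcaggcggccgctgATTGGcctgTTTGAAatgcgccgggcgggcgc
Kif18b (chr11:102925100-102925179, minus strand): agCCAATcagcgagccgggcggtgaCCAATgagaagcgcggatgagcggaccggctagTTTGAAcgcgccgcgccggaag
Kif20b (chr19:34922303-34922382, plus strand): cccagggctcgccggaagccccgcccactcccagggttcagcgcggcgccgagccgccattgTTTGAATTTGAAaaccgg
Kif4 (chrX:100626010-100626089, plus strand): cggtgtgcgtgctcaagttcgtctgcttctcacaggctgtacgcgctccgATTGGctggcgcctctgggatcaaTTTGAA
Kif3a (chr11:53567314-53567393, plus strand): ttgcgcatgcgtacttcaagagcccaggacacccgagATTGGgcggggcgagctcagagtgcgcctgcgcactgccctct
Kif1c (chr11:70700493-70700572, plus strand): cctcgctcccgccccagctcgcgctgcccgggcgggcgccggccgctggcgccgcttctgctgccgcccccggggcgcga

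On both strands of the whole window, TTTGAA was found in 9 of 11 mitotic members with a window (81.8%), in 1 of 11 transport members (Kif1a, 9.09%), in 1 of 5 cilium and flagellum members (Kif27) and in 1 of 4 others (Kif26b). Over all 27025 genes with a window the share was 20.2%. The mitotic members without a match were Kif18a and Kif2b. Kif18a, which had the largest mitotic fall in cKit dKO under TMM scaling (-1.73), had no CCAAT match either. CCAAT was found in 7 of the 11 mitotic, 3 of the 11 transport, 3 of the 5 cilium and flagellum and 1 of the 4 other members. The share of all genes was 41.1%. Both motifs stood in the same window in 6 of the 11 mitotic members, in 0 of the 11 transport members and in 7.97% of all genes. They also did so in 1 of the 5 cilium and flagellum members (Kif27) and in 1 of the 4 others (Kif26b). Kif15, Kif20b and Kif2c had TTTGAA without CCAAT, and their log2 fold changes in cKit dKO were -0.41, -1.05 and -1.59 under TMM scaling and 1.20, 0.57 and -0.02 with scaling on germ cell genes. A match is a description of these letters and not a binding site.

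The transport kinesins held members on both sides in the cKit libraries under TMM scaling. With scaling on germ cell genes 13 of 15 passed as higher in cKit dKO, beside 82.1% of all genes in either direction. Kif1b (chr4:149176321-149307698), a kinesin-3 motor of mitochondria and vesicle precursors, had the most counts of the family. It had 313 and 298 CPM in cKit dKO against 303 and 278 CPM in cKit control, and 280.4 and 307 CPM in Thy1 dKO against 228 and 229 CPM in Thy1 control. The cKit groups overlapped, while both Thy1 dKO libraries were above both Thy1 control libraries. Kif5b, the widely expressed kinesin-1 heavy chain, had 256 and 195 CPM in cKit dKO against 203 and 191 CPM in cKit control, and 153 and 161 CPM in Thy1 dKO against 139 and 155 CPM in Thy1 control. Its groups overlapped in both comparisons of genotype, and its level in every cKit library was above that in every Thy1 library. Kif1c (chr11:70700548-70731970), a kinesin-3 motor of Golgi and secretory vesicles, had 71.7 and 67.9 CPM in cKit dKO against 68.8 and 84.7 CPM in cKit control, and 51.0 and 45.3 CPM in Thy1 dKO against 49.4 and 55.1 CPM in Thy1 control. Like Kif5b, it was higher in each cKit than in each Thy1 library.

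Kif21a and Kif13a were the transport kinesins with the largest positive changes in cKit dKO. Kif21a (chr15:90933276-91049948), a kinesin-4 that restrains microtubule growth at the cell cortex, had 43.2 and 54.7 CPM in cKit dKO against 24.6 and 29.6 CPM in cKit control, and 14.5 and 19.5 CPM in Thy1 dKO against 16.3 and 15.5 CPM in Thy1 control. The log2 fold change in cKit was 0.86 ± 0.20, or 1.81-fold higher, and the cKit groups did not overlap. Kif13a (chr13:46749088-46929718), a kinesin-3 motor of endosomes, had 46.1 and 47.4 CPM in cKit dKO against 24.6 and 34.8 CPM in cKit control, and 39.5 and 45.3 CPM in Thy1 dKO against 37.9 and 31.6 CPM in Thy1 control. Its change in cKit was 0.66 ± 0.19. Without cKit control replicate 1 neither passed edgeR's threshold, with changes of 0.73 for Kif21a and 0.42 for Kif13a.

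Other transport kinesins were lower in cKit dKO under TMM scaling, while with scaling on germ cell genes no transport kinesin passed as lower. Kif3a (chr11:53567379-53604244), a kinesin-2 subunit that with Kif3b and Kifap3 drives anterograde intraflagellar transport, had 78.9 and 90.2 CPM in cKit dKO against 129 and 124 CPM in cKit control, and 97.5 and 87.5 CPM in Thy1 dKO against 112 and 124 CPM in Thy1 control. Its log2 fold change was -0.58 ± 0.13 in cKit and -0.35 ± 0.13 in Thy1. Its partner Kif3b had 53.6 and 55.7 CPM in cKit dKO against 46.3 and 44.7 CPM in cKit control, a change of 0.26 ± 0.16. The motor subunits of the same complex thus had estimates of opposite sign in cKit under TMM scaling, and both were positive with scaling on germ cell genes, at 1.03 for Kif3a and 1.88 for Kif3b.

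Kif5a (chr10:127225695-127263363), a kinesin-1 heavy chain known mainly from neurons, had 8.005 and 5.02 CPM in cKit dKO against 14.7 and 13.5 CPM in cKit control, and 7.10 and 7.35 CPM in Thy1 dKO against 12.1 and 13.7 CPM in Thy1 control. Both dKO groups were below their controls without overlap, by log2 fold changes of -1.12 ± 0.30 in cKit, or 0.54 with scaling on germ cell genes, and -0.84 ± 0.30 in Thy1. Kif17 (chr4:138262251-138301973), a kinesin-2 that in mouse spermatids carries a CREM coactivator, had 2.72 and 2.04 CPM in cKit dKO against 5.98 and 4.21 CPM in cKit control, and 3.72 and 5.85 CPM in Thy1 dKO against 6.31 and 6.22 CPM in Thy1 control. At 13 to 69 counts a library its changes were less certain, at -1.10 ± 0.45 in cKit, or 0.56 with scaling on germ cell genes, and -0.40 ± 0.42 in Thy1. Kif21b (chr1:136131401-136178014), a kinesin-4 that paces microtubule growth, had 49.1 and 47.4 CPM in cKit dKO against 86.6 and 64.3 CPM in cKit control, and 55.3 and 51.7 CPM in Thy1 dKO against 54.3 and 54.8 CPM in Thy1 control. Its log2 fold change in cKit was -0.65 ± 0.16 under TMM scaling and 1.003 with scaling on germ cell genes, and the Thy1 groups overlapped. Kif3c (chr12:3365132-3406494), the third kinesin-2 motor subunit, had 33.1 and 21.5 CPM in cKit dKO against 27.7 and 24.4 CPM in cKit control, and 25.9 and 34.7 CPM in Thy1 dKO against 17.4 and 25.5 CPM in Thy1 control. Its cKit groups overlapped, and both Thy1 dKO libraries were above both Thy1 controls (0.49 ± 0.25, edgeR adjusted p = 0.39). Kif3c shares 2612 bases with 1110002L01Rik on the opposite strand, so part of its reads could belong to that gene. The transport members not given by library were Kif16b, Kif13b, Kif5c and Kif1a, whose log2 fold changes in cKit lay between -0.57 for Kif5c and -0.16 for Kif13b under TMM scaling and between 1.04 for Kif5c and 1.48 for Kif1a with scaling on germ cell genes.

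**Figure D2:**
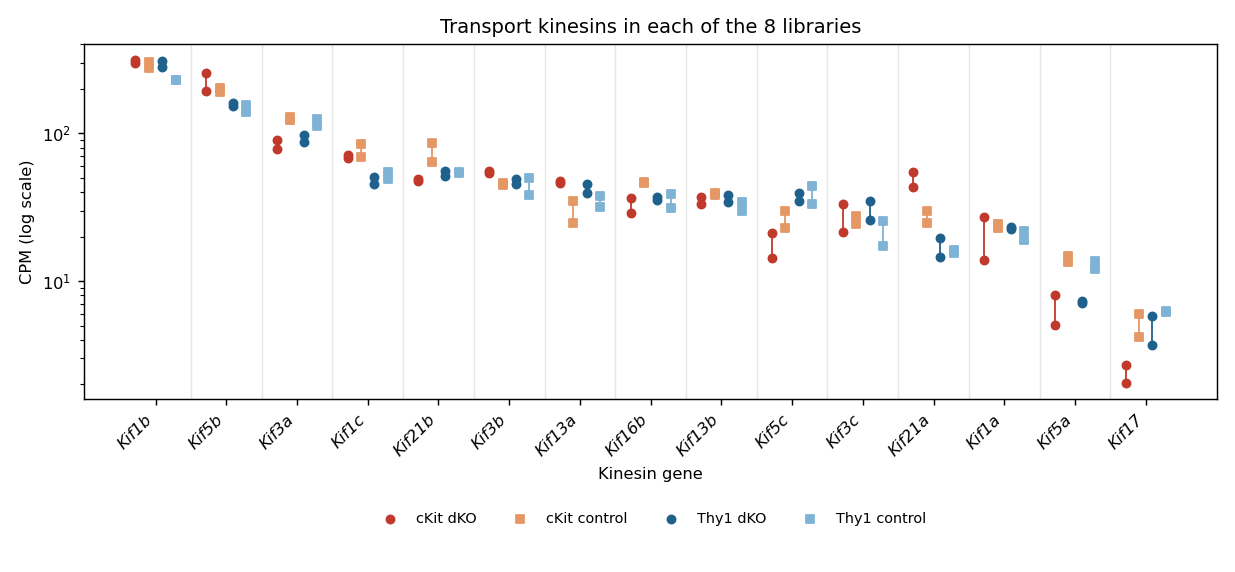
Level of each of the 15 transport kinesins (horizontal axis, from the highest mean level to the lowest) in CPM on a log scale (vertical axis), scaled by TMM; each point is 1 library, and a line joins the 2 libraries of a group. Kif21a and Kif13a sit higher in cKit dKO (red circles) than in cKit control (orange squares), Kif5a and Kif3a sit lower, and Kif1b and Kif5b overlap; with scaling on germ cell genes the changes of Kif5a and Kif3a became 0.54 and 1.03.

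The kinesins of cilia and flagella were low per library apart from Kif24. Kif24 (chr4:41390748-41464848), which holds back cilium assembly at the mother centriole, had 25.9 and 26.5 CPM in cKit dKO against 40.6 and 26.9 CPM in cKit control, and 36.9 and 34.99 CPM in Thy1 dKO against 40.2 and 36.9 CPM in Thy1 control. The lower cKit control library stood within 1 CPM of both cKit dKO libraries. Kif27 (chr13:58287516-58354862), a relative of Kif7 known from motile cilia in mice, had 10.2 and 12.1 CPM in cKit dKO against 20.7 and 24.9 CPM in cKit control, and 13.6 and 15.0 CPM in Thy1 dKO against 20.8 and 23.4 CPM in Thy1 control. It was below control without overlap in both populations, by -1.02 ± 0.23 in cKit, or 0.55 with scaling on germ cell genes, and -0.63 ± 0.22 in Thy1. Kif7 (chr7:79698098-79714186), which works at the ciliary tip in Hedgehog signalling, had 20.3 and 10.0 CPM in cKit dKO against 22.6 and 25.5 CPM in cKit control, and 10.6 and 15.0 CPM in Thy1 dKO against 18.9 and 14.2 CPM in Thy1 control. Kif7 shares 48 bases with Ticrr on the opposite strand. The 2 cKit dKO libraries differed from each other by about as much as from the controls.

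Kif9 (chr9:110476958-110525174), a motor of motile cilia and the sperm flagellum, had 2.88 and 1.73 CPM in cKit dKO against 4.24 and 3.19 CPM in cKit control, and 3.83 and 5.17 CPM in Thy1 dKO against 4.34 and 2.58 CPM in Thy1 control. Its counts are a sum over 2 entries. Kif6 (chr17:49615172-49909847), a kinesin-9 like Kif9, and Kif19a (chr11:114765389-114790575), which sets the length of motile cilia, were near the floor. Kif6 had 0.48 and 0.94 CPM in cKit dKO against 1.13 and 1.02 CPM in cKit control, and 1.46 and 0.54 CPM in Thy1 dKO against 1.31 and 1.06 CPM in Thy1 control. Kif19a had 0.48 and 0.47 CPM in cKit dKO against 0.35 and 0.51 CPM in cKit control, and 1.01 and 2.59 CPM in Thy1 dKO against 1.45 and 0.47 CPM in Thy1 control. With 66 and 57 counts over all 8 libraries, no difference of Kif6 or Kif19a was detectable at this depth.

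Of the members outside these classes, Kif2a (chr13:106960585-107022114), a depolymerase at spindle poles and in neurons, had 115.7 and 116 CPM in cKit dKO against 175 and 152 CPM in cKit control, and 164 and 176 CPM in Thy1 dKO against 198 and 201 CPM in Thy1 control. It was below control in both populations without overlap, by -0.50 ± 0.12 in cKit and -0.23 ± 0.11 in Thy1 under TMM scaling, and its changes were 1.13 in cKit and 0.04 in Thy1 with scaling on germ cell genes. Kif26a (chr12:112146208-112181747), a kinesin that binds microtubules without ATPase activity, had 9.77 and 18.7 CPM in cKit dKO against 27.8 and 23.0 CPM in cKit control, and 19.8 and 16.5 CPM in Thy1 dKO against 19.2 and 20.2 CPM in Thy1 control. Kif26b (chr1:178529125-178932857), its relative known from kidney development in mice, had 0.16 and 0.94 CPM in cKit dKO against 1.82 and 2.81 CPM in cKit control, and 2.59 and 1.23 CPM in Thy1 dKO against 2.37 and 2.11 CPM in Thy1 control. Its 1 and 6 counts in the cKit dKO libraries leave its fold change of -2.02 ± 0.82 poorly fixed.

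**Figure D3:**
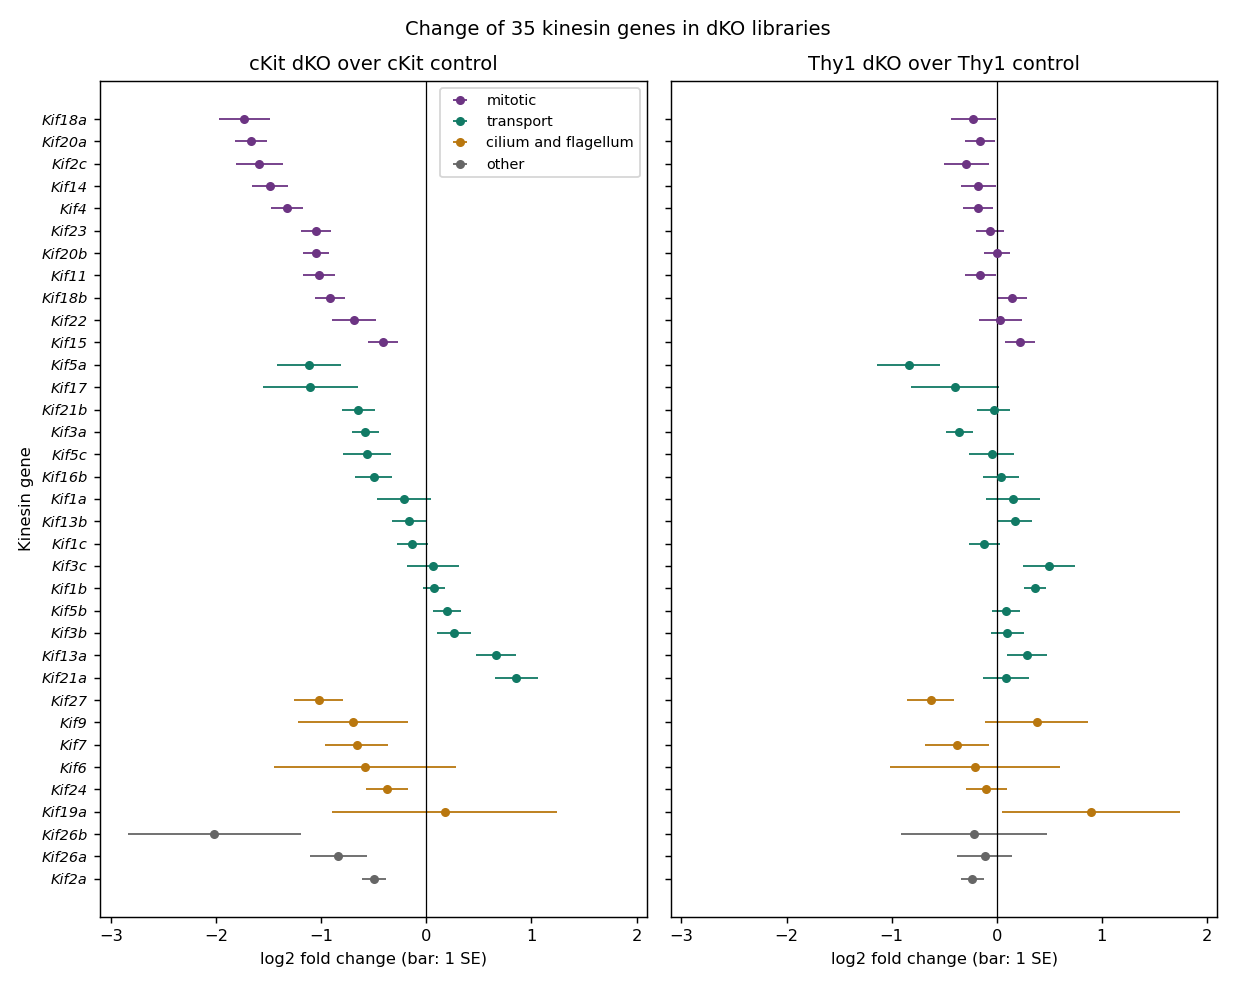
Log2 fold change of the 35 kinesins that passed the low-count filter (horizontal axis; 1 gene per row, bars are 1 SE) in cKit dKO over cKit control (left panel) and Thy1 dKO over Thy1 control (right panel), under TMM scaling and coloured by class. In cKit the 11 mitotic members run from -1.73 to -0.41 and the 15 transport members from -1.12 to 0.86, and in Thy1 the mitotic members run from -0.29 to 0.22; with scaling on germ cell genes the mitotic medians were 0.57 in cKit and 0.12 in Thy1.

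In the comparison that chose the family, cKit dKO against cKit control, 20 of the 35 members were past edgeR's threshold under TMM scaling, against 28.6% of all tested genes, and nothing is read from this count. They were 18 lower members, against 15.4% of all genes, and 2 higher members, against 13.2%. All 11 tested mitotic kinesins were among the lower ones, with 4 transport members (Kif21b, Kif3a, Kif16b and Kif5a), Kif27, Kif2a and Kif26a, and the higher ones were Kif21a and Kif13a. Both cKit dKO libraries were below both controls for 26 members, against 30% of all genes, and above them for 3 members, against 30.8%. With scaling on germ cell genes 21 members passed, all of them higher in cKit dKO, beside 82.1% of all genes in either direction. Kif18a, Kif20a, Kif2c and Kif26b had negative estimates without passing. Of 17 other settings, Kif15 was again past the threshold as lower in 2, Kif16b in 6, Kif22 in 11 and Kif26a in 11. Kif22 was lost without any 1 of the 4 cKit libraries, and Kif26a without either cKit control library or without cKit dKO replicate 1. Kif5a was lost without cKit control replicate 1 or cKit dKO replicate 2, and Kif21b and Kif2a without cKit control replicate 1. Without cKit control replicate 1 the number of members passing was 11, all lower.

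The comparison of Thy1 dKO with Thy1 control asked whether the same motors differed in the less differentiated population, and the choice of the family did not use it. Under edgeR's quasi-likelihood test 0 of the 35 kinesins passed, against 0.624% of all tested genes (0.362% higher and 0.262% lower). At an unadjusted p under 0.05 there were 4 members, Kif1b, Kif3a, Kif5a and Kif27, or 11.4%, against 13.8% of all genes. DESeq2 called 1 member, Kif1b, against 2.21% of all genes, and limma on log2 RPKM called 0, against 0.0134% of all genes. The 11 mitotic members had a median log2 fold change of -0.16 under TMM scaling, beside 0.03 for all genes, and of 0.12 with scaling on germ cell genes. Under TMM scaling each mitotic estimate had a 95% interval that held 0. The lowest bound was -0.74, for Kif2c (-0.29 ± 0.21), and the highest 0.53, for Kif15 (0.22 ± 0.14). The interval of Kif11 ran from -0.47 to 0.15 and that of Kif20b from -0.26 to 0.26. Their cKit changes under the same scaling, -1.02 and -1.05, lay outside these intervals, but they come from the comparison that chose the family. With scaling on germ cell genes the cKit changes were 0.61 and 0.57. On that scale no mitotic member passed for the difference of the dKO effects.

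Kif1b had the smallest adjusted p of the family in Thy1 dKO, at 0.36 ± 0.11 on the log2 scale (edgeR adjusted p = 0.12), with both dKO libraries above both controls. Kif3a (-0.35 ± 0.13, edgeR adjusted p = 0.21), Kif5a (-0.84 ± 0.30, edgeR adjusted p = 0.21) and Kif27 (-0.63 ± 0.22, edgeR adjusted p = 0.21) were lower in both dKO libraries than in both controls and did not pass. Both Thy1 dKO libraries were above both controls for 6 members, against 28.5% of all genes, and below them for 11 members, against 22.8%. Of the lists set beside the family, the genes that fell in Thy1 dKO by edgeR's test were Sall4 (-1.57 ± 0.13), Lin28a (-1.23 ± 0.15) and Neurog3 (-3.93 ± 0.72) of the undifferentiated spermatogonia list and Tdrd9 (-1.03 ± 0.20) of the germ cell list. Those that rose were Gata4 (0.49 ± 0.10), Hsd3b1 (0.58 ± 0.11) and Cdh5 (0.52 ± 0.10). They were 1 of 11 Sertoli, 1 of 6 Leydig and 1 of 9 endothelial genes, against 0.362% of all genes. The medians of these lists were 0.16, 0.50 and 0.62, with 3, 1 and 0 estimates below 0. No stromal gene passed, and 7 of 11 had estimates below 0, with a median of -0.19. The part of these cell types in the kinesin values was not tested. None of 24 proliferation genes, 12 mitotic partners of kinesins, 21 dynein and dynactin genes or 9 light chains and adaptors passed edgeR's test in Thy1 dKO. Unadjusted p under 0.05 was reached by 7, 1, 3 and 1 of them, against 13.8% of all genes. Of the proliferation genes 20 had estimates below 0. Their median was -0.16 under TMM scaling and 0.10 with scaling on germ cell genes. Both dKO libraries were below both controls for 14 of them, against 22.8% of all genes, and above for 1, against 28.5%.

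Between the populations, the cKit control libraries are those of the comparison that chose the family, so the values are a description. In cKit control over Thy1 control 6 of the 35 members were past edgeR's threshold, against 19.7% of all genes. With scaling on germ cell genes 9 members passed, all higher, beside 19.9% of all genes in either direction. Under TMM scaling Kif21a (0.77 ± 0.21), Kif1c (0.55 ± 0.15), Kif21b (0.47 ± 0.15), Kif5b (0.42 ± 0.13) and Kif1b (0.35 ± 0.11), all transport kinesins, were higher in cKit control, against 9.46% of all genes on that side. Kif11 (-0.45 ± 0.15) was lower, against 10.3%. Without Thy1 control replicate 1 there were 0 calls, without Thy1 control replicate 2 there was 1, and without Thy1 dKO replicate 1, Thy1 dKO replicate 2 or cKit control replicate 2 there were 2. The calls of Kif11, Kif1b, Kif5b and Kif21b were each lost in at least 6 of 17 other settings. Both cKit control libraries were above both Thy1 control libraries for 17 members, against 29.9% of all genes, and below them for 5, against 29.8%. The mitotic median was 0.18, beside 0.01 for all genes, and the transport median was 0.28. In cKit dKO over Thy1 dKO 15 members were past it, against 34.8% of all genes. The lower side held 12 of them, 10 of 11 mitotic members with Kif5c and Kif2a, against 20% of all genes, and the higher side Kif21a (1.53 ± 0.21), Kif1c (0.53 ± 0.15) and Kif5b (0.52 ± 0.13), against 14.8%. With scaling on germ cell genes 26 members passed, all higher, beside 80.8% of all genes in either direction. The mitotic median was then 0.83, against -0.94 under TMM scaling. Both cKit dKO libraries were above both Thy1 dKO libraries for 5 members, against 29.3% of all genes, and below them for 20, against 38.2%. The dKO effect in cKit minus that in Thy1 was past edgeR's threshold for 9 members under TMM scaling, against 5.92% of all genes. All were mitotic and negative, against 4.06% of genes on that side and 1.86% on the other. With scaling on germ cell genes 11 members passed, all positive and none of them mitotic, beside 60.2% of all genes in either direction.

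The balance within a library needs no scaling between libraries. The counts of the cKit libraries chose the family, so the shares and ratios in them are a description and not a separate check. The mitotic members took 20.4% (95% Wilson interval 19.6% to 21.2%) and 23.9% (23.1% to 24.8%) of the family's counts in the cKit dKO libraries, against 36.7% (36.1% to 37.3%) and 35.3% (34.6% to 36.1%) in the cKit control libraries. In the Thy1 dKO libraries they took 37.8% (37.1% to 38.5%) and 36.0% (35.2% to 36.8%), against 38.3% (37.5% to 39.1%) and 38.8% (38.0% to 39.5%) in the Thy1 control libraries. The cKit dKO shares were the lowest of the 8, and the Thy1 groups did not overlap either, with dKO on the lower side. These intervals treat reads as independent and leave out the spread between libraries. Reads of amplified cDNA are not independent molecules, so the intervals may be too narrow even for counting error. Those of the cKit dKO libraries did not overlap each other. The ratio of mitotic to transport counts was 0.3001 and 0.375 in cKit dKO against 0.737 and 0.685 in cKit control, and 0.778 and 0.720 in Thy1 dKO against 0.845 and 0.850 in Thy1 control.

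The mitotic kinesins were also set against other lists within each library. Mitotic kinesin counts over those of 24 proliferation genes were 0.201 and 0.196 in cKit dKO against 0.229 and 0.237 in cKit control, and 0.227 and 0.228 in Thy1 dKO against 0.219 and 0.226 in Thy1 control. Mitotic kinesin counts over those of the germ cell genes were 0.435 and 0.355 in cKit dKO against 0.262 and 0.293 in cKit control, and 0.224 and 0.244 in Thy1 dKO against 0.209 and 0.203 in Thy1 control. Relative to proliferation genes the cKit dKO libraries were the lowest of the 8, and relative to germ cell genes they were the highest.

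**Figure D4:**
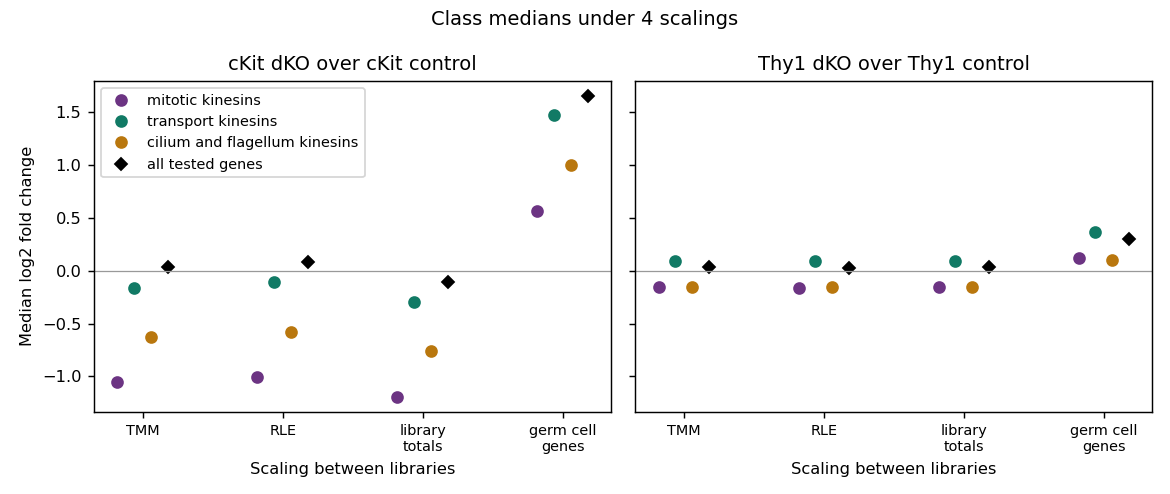
Median log2 fold change (vertical axis) of the mitotic, transport and cilium and flagellum kinesins and of all tested genes (black diamonds) under 4 ways of scaling the libraries (horizontal axis), for cKit dKO over cKit control (left) and Thy1 dKO over Thy1 control (right). In cKit the mitotic median was -1.05 under TMM scaling and 0.57 with scaling on germ cell genes. The mitotic median minus that of all genes was -1.08 in both, as a change of scaling moves all genes by about the same amount.

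Genes that work with the mitotic kinesins were read in the same cKit libraries. With scaling on germ cell genes the median of the 12 mitotic partners in cKit dKO was 0.65. On that scale 6 passed as higher, beside 82.1% of all genes in either direction. Under TMM scaling all 12 passed as lower, against 15.4% of all genes, with a median of -0.97. Among them were Racgap1 (-0.67 ± 0.15), the centralspindlin partner of Kif23, Prc1 (-0.92 ± 0.13), the midzone bundler that recruits Kif4, Cit (-1.12 ± 0.19), the citron kinase bound by Kif14, and Aurkb (-1.17 ± 0.17), the kinase that Kif20a carries. Of the 24 proliferation genes 20 passed as lower under TMM scaling, with a median of -0.88, and with scaling on germ cell genes the median was 0.72. Cenpe, a mitotic kinesin whose symbol falls outside the Kif pattern, had 109 and 125 CPM in cKit dKO against 318 and 286 CPM in cKit control, and 219 and 209 CPM in Thy1 dKO against 210 and 258 CPM in Thy1 control. Its change in cKit was -1.37 ± 0.13. Kifc3, a minus-end motor of cell junctions and centrosomes, was higher in cKit dKO (0.65 ± 0.22), and Kifc1, Kifc2 and Kifc5b did not pass. Kifc1 and Kifc5b are near-identical copies, so their reads may be split between them.

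Dynein, with its activator dynactin, carries cargo toward microtubule minus ends, opposite to most kinesins. The 21 dynein and dynactin genes had a median of 0.00 in cKit dKO under TMM scaling and 1.63 with scaling on germ cell genes. On the germ cell scale all 21 passed as higher, beside 82.1% of all genes in either direction. Under TMM, Dync1h1 (-0.50 ± 0.10), the heavy chain, and Dynll1 (-0.54 ± 0.12), a light chain, passed as lower. These 2 of 21 genes are 9.52%, below the 15.4% of all genes on that side. The 9 kinesin light chains, accessory proteins and adaptors in the tables had a median of 0.11 under TMM and 1.68 with scaling on germ cell genes. Under TMM 1 of the 9, Kifap3 (0.44 ± 0.14), the accessory subunit of the Kif3 motors, passed as higher, beside 13.2% of all genes. Since these comparisons use the libraries that chose the family, they too are descriptions.

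Levels of different kinesins were compared per length, as RPKM of the entry with most counts per symbol. Kif2a was highest in both controls, with 14.9 ± 2.20 RPKM in cKit control and 15.3 ± 0.88 RPKM in Thy1 control (SD, n = 2). In cKit control Kif5b (11.0 ± 1.10 RPKM), Kif1b (10.7 ± 1.14 RPKM) and Kif11 (8.12 ± 2.18 RPKM) followed, and Kif11 did not differ beyond its spread from Kif18b (8.09 ± 1.10 RPKM) and Kif23 (8.06 ± 0.59 RPKM). In Thy1 control Kif11 (9.35 ± 0.20 RPKM) came before Kif1b (7.26 ± 0.42 RPKM) and Kif5b (6.95 ± 0.07 RPKM), which differed from each other by less than the SD of Kif1b. In cKit dKO the order was headed by Kif5b (9.86 ± 1.45 RPKM), Kif1b (8.76 ± 0.06 RPKM) and Kif2a (8.27 ± 0.42 RPKM), and Kif11 stood at 3.15 ± 0.51 RPKM. In Thy1 dKO it was headed by Kif2a (12.9 ± 0.52 RPKM), Kif1b (9.19 ± 0.61 RPKM) and Kif11 (8.28 ± 0.32 RPKM).

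**Figure D5:**
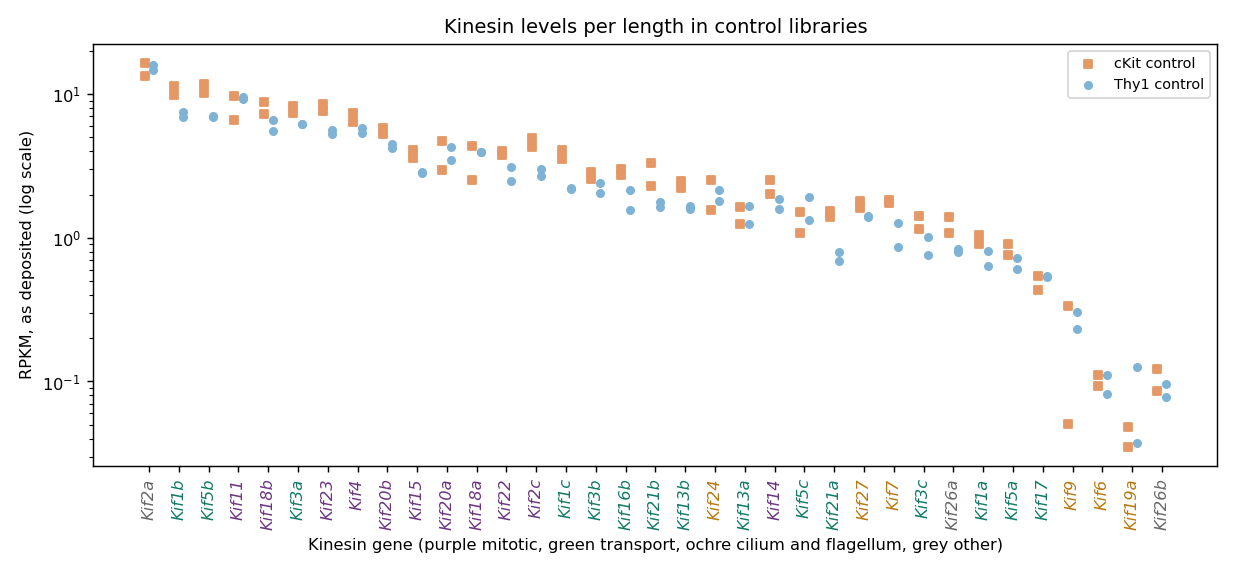
RPKM as deposited (vertical axis, log scale) of the 35 kinesins that passed the low-count filter in the cKit control (orange squares) and Thy1 control (blue circles) libraries, 1 point per library, ordered along the horizontal axis by mean level over all groups and with names coloured by class. Kif2a is highest in both populations at 14.9 and 15.3 RPKM, mitotic and transport members are mixed along the order, and Kif9, Kif6, Kif19a and Kif26b are lowest. Each value is of the entry with most counts per symbol, which for Kif20a had 0 RPKM in Thy1 dKO replicate 2, so its place is uncertain.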

How the data were processed

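The deposited tables hold, per the file headers, read counts and RPKM values for 26099 transcript entries; the counts are whole numbers that the authors did not normalize, and the deposited RPKM values are counts scaled by transcript length and library size. STAR 2.4.2a and the mm10 build are named in the submitters' processing notes. The counting tool and its use of strand are not given in the sources used here. Per the labels' protocols, RNA was amplified (NuGEN Ovation v2) before Nextera XT libraries were made. Library totals were 6763908 to 10976869 counts, and no library carries molecular identifiers.

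Counts were summed per symbol, and RPKM values are those of the entry with most counts per symbol. The members and lists were chosen with earlier results of these data known. Tests used edgeR 4.0.16 (R 4.3.3): filterByExpr (14907 genes kept), TMM, glmQLFit and glmQLFTest on all 8 libraries with 1 mean per group (4 residual degrees of freedom), two-sided, Benjamini-Hochberg over all genes, threshold 0.05; the steps were checked on simulated counts. Standard errors are of log2 fold changes. For named members the rule was, per class, the 5 highest by mean level and the 2 largest rises and falls in each genotype comparison; the other mitotic members and Kif3b were added. Alternatives were RLE, library totals, scaling on 25 germ cell genes, no filter, the largest entry per symbol, a replicate block, 4 libraries alone, each library left out, DESeq2 1.42.0, and limma 3.58.1 on log2(RPKM + 0.1). Promoter windows are from RefSeq (GRCm38.p6).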

Additional observations from a re-analysis of the deposited data

Results flagged for a closer look

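With scaling on germ cell genes the dKO effect in cKit minus that in Thy1 was past edgeR's threshold for 11 of the 35 kinesins. All were positive and none of them mitotic, beside 60.2% of all genes in either direction. Under TMM scaling it was past the threshold for 9, against 5.92% of all genes, all mitotic and all negative. Without Thy1 dKO replicate 1 the number was 4 and without Thy1 control replicate 1 it was 5. The difference contains the comparison that chose the family, so its values are a description. They were -1.51 ± 0.32 (SE) for Kif18a, -1.502 ± 0.21 for Kif20a, -1.31 ± 0.24 for Kif14 and -1.30 ± 0.31 for Kif2c. They were -1.15 ± 0.21 for Kif4, -1.06 ± 0.20 for Kif18b, -1.05 ± 0.18 for Kif20b, -0.99 ± 0.19 for Kif23 and -0.86 ± 0.21 for Kif11. The mitotic members that did not pass were Kif22 (-0.72 ± 0.29) and Kif15 (-0.63 ± 0.20). Germ cell genes, summed at 738 and 1036 CPM in cKit dKO against 3031 and 2392 CPM in cKit control, moved with these values, and their part was not tested.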

How the results depend on the processing

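With only the 4 libraries of Thy1 dKO and Thy1 control, 1 member (Kif1b) passed in Thy1 in place of 0, against 6.05% of all genes. With DESeq2 the same 1 member passed, against 2.21% of all genes. With 1 library left out, members passing ranged from 11 to 19 in cKit dKO against control (11 without cKit control replicate 1), 0 to 7 in cKit control against Thy1 control, 12 to 15 in cKit dKO against Thy1 dKO, 4 to 10 for the difference of the dKO effects and 0 to 0 in Thy1 dKO. The largest entry per symbol gave 3 in cKit control against Thy1 control, beside 15.2% of all genes, and 5 for the difference, beside 2.91%. Scaling on germ cell genes gave 26 in cKit dKO against Thy1 dKO, beside 80.8% of all genes. It also turned class medians positive: the mitotic ones to 0.12 in Thy1 dKO, 0.57 in cKit dKO, 0.83 in cKit dKO against Thy1 dKO and 0.28 for the difference, the cilium and flagellum ones to 0.10, 0.99, 1.26 and 0.92 in these 4 and 0.37 in cKit control against Thy1 control, and the transport ones to 1.47, 1.68 and 1.07 in the last 3 of the 4. In cKit dKO against control the same scaling gave Kif14 0.11, Kif4 0.26, Kif5a 0.54, Kif27 0.55, Kif20b 0.57, Kif23 0.57, Kif11 0.61, Kif18b 0.69, Kif26a 0.73, Kif22 0.92, Kif21b 1.003, Kif7 1.01, Kif3a 1.03, Kif5c 1.04, Kif2a 1.13, Kif16b 1.14, Kif15 1.20, Kif24 1.28, Kif1c 1.47, Kif13b 1.47 and Kif1a 1.48. Same-numbered replicates did not deviate together (correlations -0.037 to 0.053 over 6 pairs of groups). This does not settle whether they came from the same animals, which the labels do not state. A fit with the replicate as a block called 0 members in Thy1 dKO (1.05% of all genes), 19 in cKit dKO (28.3%) and 6 in cKit control against Thy1 control (19.8%). It called 15 in cKit dKO against Thy1 dKO (34.4%) and 9 for the difference (6.2%). Members uncalled in both settings changed sign in 75 of 1650 cases. With 2 libraries a group, small changes in Thy1 are beyond this depth of replication.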
